A study of Caenorhabditis elegans with 45 samples.

Results

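The genes described are 9 that build the eggshell of Caenorhabditis elegans or act in egg activation: cbd-1, perm-2, perm-4, egg-1, egg-2, egg-3, chs-1, cpg-1 and cpg-2. They were chosen by symbol, all 9 were found, and all 9 passed the filter on low counts, out of 16444 genes that passed and 19684 with at least 1 count. Messenger RNA was sequenced from whole hermaphrodites on their first day as adults, in 45 libraries that form 15 groups of 3. One group held the laboratory strain N2, and 7 held wild strains: EG4348, DL238, CB4856, XZ1516, QX1211, ECA722 and ECA701. A further 7 groups held F1 hybrids, 1 for every wild strain crossed to N2. The study compared expression between wild strains and N2, between F1 animals and their parents, and between the wild and the N2 allele inside the F1. Each wild group was 1 strain with wildtype genotype per the labels, so a difference from N2 belongs to that strain and not to wild animals in general.

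Per the labels' protocols, hybrids came from males of the wild strain mated to N2 mothers with mutant fog-2, which make no sperm of their own, and parental animals came from selfing. The reverse cross was not analysed here. Males were removed from the plates, and worms were collected when most carried embryos. The libraries labelled N2 are also labelled as strain CB4108 with a fog-2 deletion, yet fog-2 transcripts were counted in them at 36.9 to 45.3 CPM (counts scaled to library size with TMM factors), against 31.7 to 46.8 in wild parental and 20.9 to 32.2 in F1 libraries. These libraries labelled N2 are called N2 below. Extraction ran in 3 batches with 1 sample of every group in each, and which replicate number went into which batch is not given. The labels name plates but not separate cultures per library, so the p-values measure the spread between these libraries, which may be partly technical.

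The C. elegans eggshell is laid down in layers around the newly fertilised oocyte. The outer vitelline layer is already present on the oocyte, the chitin layer beneath it is made after sperm entry, and cortical granules then release chondroitin proteoglycans that form the inner layer. The oocyte makes and stores most of these proteins, and their genes are transcribed in the adult germline. CBD-1 is a chitin-binding protein of the vitelline layer, where PERM-2 and PERM-4 join it, and EGG-1 and EGG-2 are oocyte surface proteins with LDL-receptor repeats that sperm need to enter. EGG-3 is a pseudophosphatase at the cortex that holds the kinase MBK-2 and the chitin synthase CHS-1, and CPG-1 and CPG-2 are chondroitin proteoglycans.

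In the WBcel235 genome, cbd-1 lies on chromosome IV at 11372991 to 11377627, on the plus strand. The genes perm-4 (IV, 1121494 to 1125107, minus strand) and perm-2 (IV, 1126790 to 1128865, plus strand) point away from each other, with 1682 bases from the end of the one to the start of the other. The genes egg-1 (III, 5728180 to 5730159, plus) and egg-2 (III, 7058527 to 7060583, minus) lie on chromosome III, as do cpg-1 (III, 4489359 to 4491392, plus) and cpg-2 (III, 7102092 to 7103990, minus). The remaining members are egg-3 (II, 10882408 to 10884441, minus) and chs-1 (I, 7554855 to 7559916, plus). Annotated neighbours share bases with 4 members, namely B0244.9 with egg-1, lurp-1 with egg-3 and C44B12.6 with perm-2 on the opposite strand, and T25G3.3 with chs-1 on the same strand. The counting is not stated to use strand, so reads of such pairs may not be fully separated. At most 0.111% of a member's fragments in any library matched another gene as well.

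All members were abundant. The level per length, in TPM (kallisto's transcript abundance scaled to library size), had a median over the 45 libraries of 1612 for cpg-2 and 1517 for cpg-1. It was 1143 for perm-2, 1101 for perm-4 and 946.6 for cbd-1, then 477.5 for egg-1, 219.7 for egg-2, 170.7 for chs-1 and 154.2 for egg-3. Genes of structural shell proteins had the higher levels, and those of the chitin synthase and of EGG-3 the lowest of the 9. The level of egg-3 still exceeded that of 95.1% of genes, and that of cpg-2 exceeded 99.4%. Library depth ran from 24.5 to 90.5 M (mega) estimated counts, and the fewest fragments unique to a member in any library were 6106, for egg-3. The chs-1 reads were divided between 2 annotated transcripts, of 4288 and 4177 bases in all strains but DL238, where the files list 4285 and 4174. By group mean, the longer one held 38.8% (ECA701 F1) to 53.9% (ECA722) of the estimated counts of chs-1, a division that was not tested. Nearly all cpg-1 counts belonged to its longer transcript, and the short second one held 0.068% to 0.111% by group.

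Differences between groups were modest for every member. The ratio of the highest to the lowest group mean in CPM was 1.71 for cpg-1, 1.48 for cbd-1, 1.46 for egg-3, 1.43 for egg-1 and 1.41 for chs-1. It was 1.35 for both egg-2 and perm-2, 1.32 for cpg-2 and 1.28 for perm-4. QX1211 or N2 had the lowest mean for all 9 genes. ECA701, as parent or as F1, had the highest mean for 8 of the 9, and DL238 had it for chs-1. Ordered by their means, the 15 groups give 14 pairs of neighbours per gene, and the libraries of at least 13 of these pairs overlapped for each member. No such count over all genes is given here, so it only describes the members. The pairs without overlap were N2 below ECA722 for cbd-1, N2 below CB4856 for egg-1 and cpg-1, QX1211 below ECA722 for egg-2, QX1211 below N2 for egg-3, and the XZ1516 F1 below ECA701 for perm-2.

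**Figure D1:**
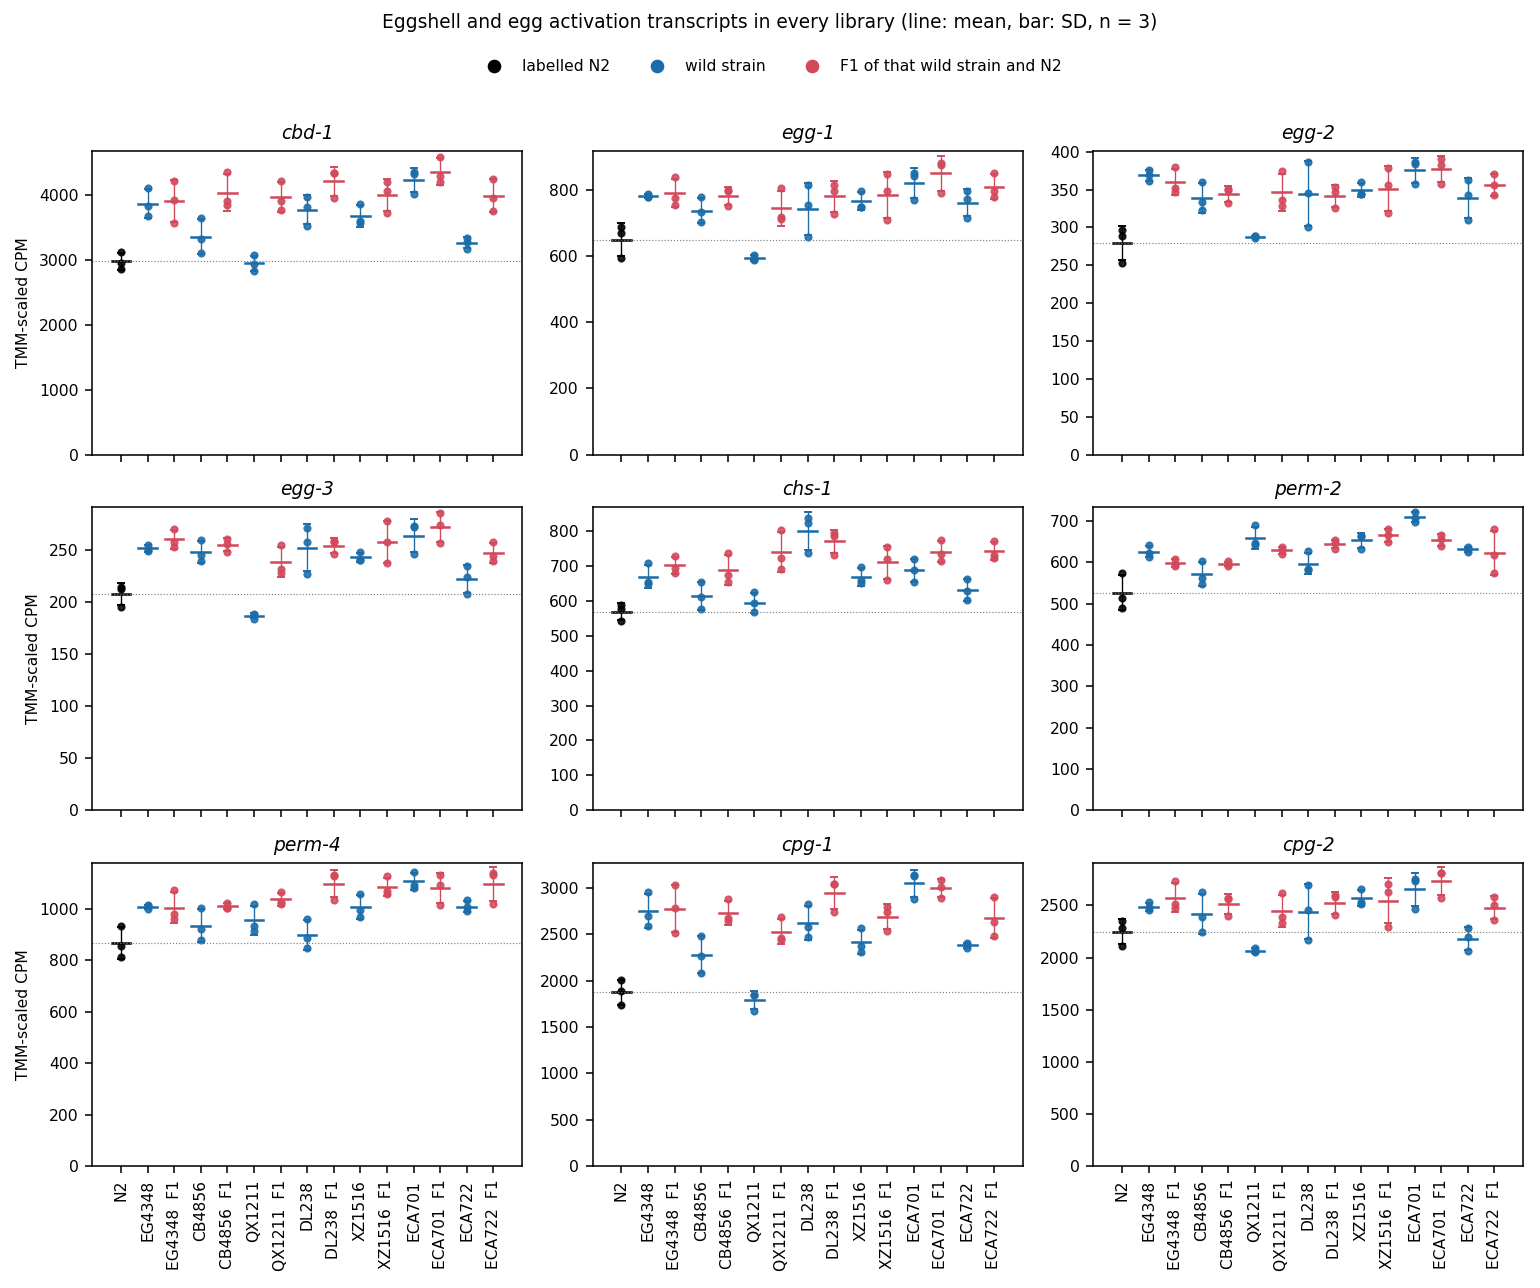
Level of the 9 genes in CPM (y axis, linear) in each of the 15 groups (x axis), with 1 point per library and a bar at the mean of 3 libraries. The N2 and QX1211 parental points lie at the bottom of most panels and the ECA701 points near the top.

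Wild parental strains were set against N2 first, with the 7 comparisons sharing the same 3 N2 libraries. Most members were higher in wild strains: 47 of the 63 gene and strain pairs passed the test (quasi-likelihood test of edgeR, adjusted p under 0.05 after Benjamini-Hochberg), 46 of them higher and 1 lower. Over all genes, 40.9% of such pairs passed in either direction and 21.4% were higher. The median log2 difference of the members was 0.24, while the all-gene medians of the 7 strains lay between -0.01 and 0.03. All 3 wild libraries lay above all 3 N2 libraries in 45 of the 63 pairs, which 25.2% of pairs did over all genes, and below them in 2, which 23.8% did. Of the members, 8 were higher in at least 5 of the 7 strains, which held for 10.1% of all genes, and 4 were higher in at least 6, which held for 5.19%.

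By strain, all 9 members were higher in ECA701 and in XZ1516, where 27.7% and 22.6% of all genes were higher. EG4348 had 8 higher members (19.2% of all genes), DL238 had 7 (18.6%), ECA722 had 6 (22.3%) and CB4856 had 5 (18.2%). QX1211 stood apart with 2 higher members (21.4% of all genes) and 1 lower (23.8%), and its member median was -0.02. Summed over the 9 genes, the 3 N2 libraries held 9950 to 10337 CPM and the 3 QX1211 libraries 9775 to 10246. The ECA701 sum was 13208 to 14308, above every N2 and QX1211 library.

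Genes of the oocyte and germline mostly moved with the members, but less so in ECA722. Of 84 pairs of a strain and 1 of 12 such markers, 54 were higher than N2 and 1 was lower, and their summed level was 7586 to 8084 CPM in N2, 7747 to 9882 in wild parental and 8838 to 10432 in F1 libraries. In QX1211 their summed level, 7747 to 7889 CPM, overlapped that of N2. The germline sums of CB4856 (8029 to 9189) and ECA722 (7899 to 8486) overlapped N2 too, while the member sums there did not. Those member sums were 10716 to 12426 CPM in CB4856 and 11056 to 11714 in ECA722, against 9950 to 10337 in N2. In ECA722, 4 of the 12 germline markers were higher than N2 and 1 was lower. In whole animals, fewer oocytes and less RNA per oocyte cannot be told apart, and the part of the germline amount in the member differences was not tested. Sperm markers (6 names, 7 genes) summed to 9.74 to 12.6 CPM in N2 and 3.202 to 30.95 in wild libraries, and gonadal sheath markers to 136 to 148 and 133.4 to 178.3. Markers of the early zygotic embryo (6 genes) were lower in 16 and higher in 2 of 42 pairs, with sums of 8.745 to 23.19 CPM in N2 and 1.193 to 21.15 in wild libraries, of which ECA701 had 1.193 to 3.532. Intestine markers were higher in 21 and lower in 2 of 35 pairs (34267 to 47654 CPM in N2, 42556 to 56178 in wild libraries), and muscle markers were higher in 13 and lower in 0 (664.9 to 1931 and 1108 to 2189). Hypodermis markers (4 genes) were higher in 11 and lower in 3 of 28 pairs. They summed to 173.4 to 193.2 CPM in ECA722 against 1410 to 1618 in N2 and 1148 to 1995 in the other wild strains. That sum does not describe the whole list. Of the 4 markers, 2 were higher than N2 in ECA722 and 1 was lower, with a median log2 difference of 0.60. Neuron markers were higher in 7 and lower in 4 of 35 (168.7 to 186.7 and 166.6 to 212.5). The part of these tissues in the member differences was not tested. N2 replicate 1 stood apart in muscle markers, 1931 CPM against 664.9 as the lowest of the 3, and its part in the results is given below wherever leaving it out ended a call.

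**Figure D2:**
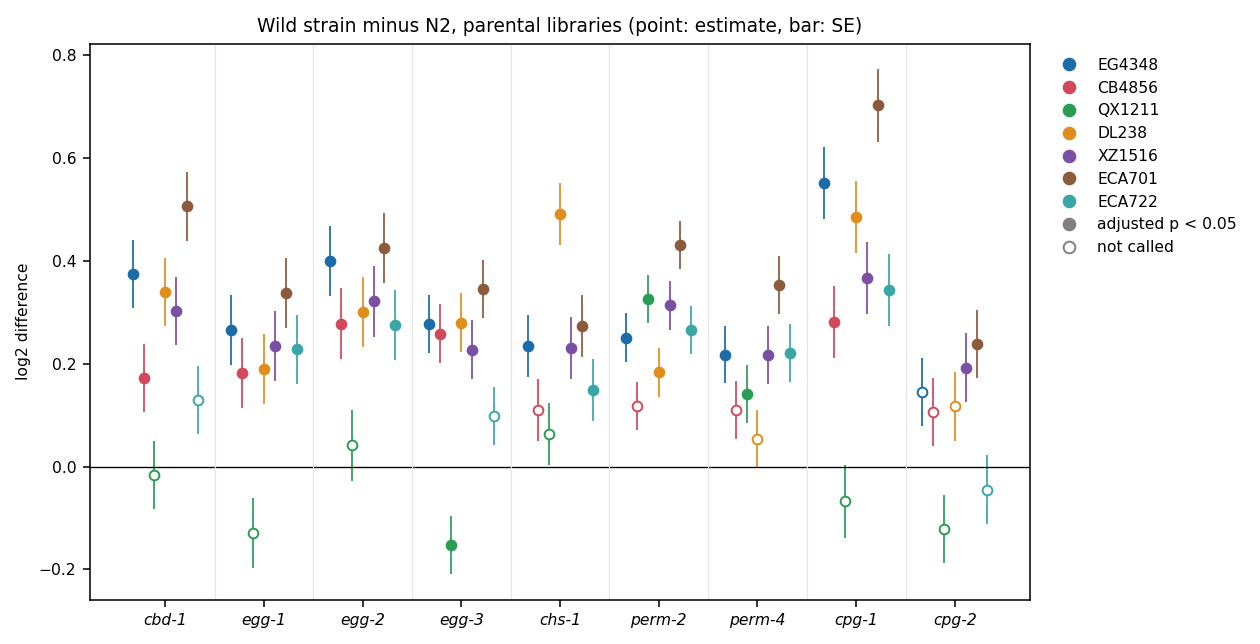
Log2 difference of each wild parental strain from N2 (y axis) for the 9 genes (x axis), with the standard error as a bar. Filled points have an adjusted p under 0.05. Most points lie above 0, and the QX1211 points of cbd-1, egg-1, egg-3, cpg-1 and cpg-2 lie below it.

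Among the vitelline layer genes, cbd-1 had 3124, 2961 and 2867 CPM in the N2 libraries and 4024, 4330 and 4359 in those of ECA701. The 2 groups did not overlap, and cbd-1 rose in ECA701 by 0.51 on the log2 scale (SE 0.07, edgeR adjusted p = 5.09e-08). It rose as well in EG4348 (log2 0.38), DL238 (0.34) and XZ1516 (0.30). The call in CB4856 (0.17, adjusted p = 0.0441) was lost without CB4856 replicate 1 (0.0739) or 2 (0.417), or without N2 replicate 1 (0.0715), 2 (0.105) or 3 (0.161). It was also lost with DESeq2's test or size factors, allele-aware totals, no count filter or only the groups compared (0.0671 to 0.24). QX1211, at 3075, 2836 and 2937 CPM, overlapped N2 (log2 -0.02, adjusted p = 0.86).

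The permeability gene perm-2 was the one member with a clear rise in QX1211. It had 573.3, 514.8 and 490.7 CPM in N2, 646.7, 642.2 and 690.1 in QX1211, and 722.6, 698.7 and 708.0 in ECA701. Neither wild strain overlapped N2, and the log2 differences were 0.33 (SE 0.05, edgeR adjusted p = 4.00e-07) and 0.43 (adjusted p = 8.25e-10). The rises in the other called strains ran from 0.18 in DL238, lost without DL238 replicate 3 (adjusted p = 0.0545) or with only the groups compared (0.109), to 0.31 in XZ1516. In CB4856 the libraries of perm-2 overlapped those of N2 (log2 0.12, adjusted p = 0.051).

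Its neighbour perm-4 had 933.3, 853.8 and 812.0 CPM in N2 and 1081, 1094 and 1144 in ECA701, again without overlap (log2 0.35, SE 0.06, edgeR adjusted p = 2.17e-06). It rose by 0.22 each in EG4348, XZ1516 and ECA722. DL238 (0.05) and CB4856 (0.11) overlapped N2. QX1211 libraries, at 932.7, 913.8 and 1020 CPM, also overlapped N2, and the call there (0.14, adjusted p = 0.0391) was lost without N2 replicate 2 (0.112) or 3 (0.24) or QX1211 replicate 3 (0.248). The same 5 other settings as for cbd-1 in CB4856 ended it too (0.0629 to 0.124).

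Of the 2 sperm-entry genes, egg-1 had 594.3, 688.5 and 669.2 CPM in N2 and 770.1, 844.3 and 853.4 in ECA701 (log2 0.34, SE 0.07, edgeR adjusted p = 7.90e-05). Without overlap with N2, EG4348 (0.27), XZ1516 (0.24), ECA722 (0.23) and CB4856 (0.18) were higher too, and DL238 (0.19) was higher with overlap. N2 replicate 1 was the lowest of its group for this gene. Without it the calls in EG4348 (adjusted p = 0.0767), ECA722 (0.102), XZ1516 (0.107), DL238 (0.281) and CB4856 (0.351) were lost, and the call in ECA701 was not. The CB4856 and DL238 calls were also lost without CB4856 replicate 1 (0.0663) or 2 (0.274) and without DL238 replicate 2 (0.081) or 3 (0.325), and the XZ1516 call without XZ1516 replicate 3 (0.0565). The 5 settings named for cbd-1 ended the CB4856 call (0.0607 to 0.213), and no count filter (0.103) or only the groups compared (0.178) the DL238 call. QX1211 had 590.8, 589.8 and 604.2 CPM, overlapping the lowest N2 library (log2 -0.13, adjusted p = 0.121).

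The paralog egg-2 had 253.3, 296.6 and 288.6 CPM in N2 and 356.8, 385.8 and 383.6 in ECA701 (log2 0.42, SE 0.07, edgeR adjusted p = 2.63e-06). All 6 strains other than QX1211 lay above N2 in every library and were called, with log2 differences from 0.28 in CB4856 and ECA722 to 0.42. The CB4856 call was lost without N2 replicate 1 (adjusted p = 0.0572), and the DL238 call with only the groups compared (0.0546). In QX1211, egg-2 measured 288.1, 286.5 and 288.6 CPM, inside the N2 range (log2 0.04).

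The cortex gene egg-3 had the one lower call. QX1211 had 183.8, 187.3 and 188.4 CPM, all below the 195.1, 213.9 and 212.6 of N2 (log2 -0.15, SE 0.06, edgeR adjusted p = 0.0281). This call was lost without N2 replicate 2 (adjusted p = 0.111) or 3 (0.102), without QX1211 replicate 2 (0.0985) and without the count filter (0.0533). In ECA701, at 245.5, 272.0 and 272.8 CPM, egg-3 rose by 0.35, and it rose by 0.23 to 0.28 in XZ1516, CB4856, EG4348 and DL238. ECA722 overlapped N2 (0.10, adjusted p = 0.173).

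The chitin synthase gene chs-1 was highest in DL238 among all 15 groups, at 738.2, 823.6 and 837.5 CPM against 541.6, 576.9 and 588.4 in N2. All DL238 libraries lay above all N2 libraries, by 1.41-fold (log2 0.49, SE 0.06, edgeR adjusted p = 2.18e-08). ECA701 (0.27), XZ1516 and EG4348 (0.23 each) were higher as well. The EG4348 call was lost without EG4348 replicate 1 (adjusted p = 0.078) or N2 replicate 1 (0.0612). That in ECA722 (0.15, adjusted p = 0.044) was lost without any 1 of its own libraries (0.0698 to 0.206) and without N2 replicate 1 (0.246) or 2 (0.0702), and in the 5 settings named for cbd-1 (0.0617 to 0.179). CB4856 (0.11) and QX1211 (0.06) overlapped N2.

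Of the proteoglycans, cpg-1 had the largest difference of any member. It measured 2004, 1885 and 1736 CPM in N2, 2954, 2702 and 2590 in EG4348, and 2884, 3127 and 3143 in ECA701. Both wild groups lay wholly above N2, by 1.47-fold (log2 0.55, edgeR adjusted p = 6.39e-08) and 1.63-fold (log2 0.70, SE 0.07, adjusted p = 1.22e-10). It rose in 6 of 7 strains, by 0.28 or more, with the CB4856 call lost without CB4856 replicate 2 (adjusted p = 0.0681). QX1211, at 1845, 1676 and 1846 CPM, overlapped N2 (log2 -0.07).

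The other proteoglycan gene, cpg-2, passed in 2 strains. It had 2115, 2346 and 2285 CPM in N2, 2469, 2738 and 2754 in ECA701 (log2 0.24, edgeR adjusted p = 0.00296) and 2536, 2514 and 2660 in XZ1516 (0.19, adjusted p = 0.017). Both groups lay above N2 without overlap. The ECA701 call was lost without N2 replicate 1 (adjusted p = 0.0678), and the XZ1516 call without N2 replicate 1 (0.18) or XZ1516 replicate 1 (0.0658), 2 (0.0536) or 3 (0.125), with allele-aware totals (0.0658) and with no count filter (0.102). QX1211 had 2060, 2050 and 2093 CPM, all below N2, with a log2 difference of -0.12 that was not called (adjusted p = 0.139).

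F1 animals were then set against the mean of their 2 parents on the log scale. All 63 member differences were above 0, and 54 passed the test, all of them higher. Over all genes 35.8% of such pairs passed in either direction and 19.4% were higher. The member median was 0.20, against all-gene medians of -0.08 to 0.01 in the 7 crosses. In 18 of the 63 pairs all F1 libraries lay above every library of both parents, which 8.07% of pairs did over all genes. Of these 18, 7 fell in the QX1211 cross, where 10.8% of all genes did. The comparisons of the crosses share the N2 libraries.

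By cross, all 9 members were higher in ECA701 and ECA722, where 24.5% and 18.4% of all genes were higher. In CB4856 (18.3%), 8 were higher, as in QX1211 (23.9%) and XZ1516 (22.1%), with 7 in DL238 (14.5%) and 5 in EG4348 (14.1%). Germline markers again moved in the same direction: 78 of 84 marker pairs were higher than the mid-parent and none lower, with medians of 0.14 to 0.22 by cross. Markers of other tissues were more often lower than higher: intestine in 18 against 8 of 35 pairs, hypodermis in 13 against 1 of 28, gonadal sheath in 8 against 2 of 28 and neuron in 8 against 1 of 35. Embryo markers were lower in 4 and higher in 0 of 42 pairs, muscle markers lower in 1 and higher in 1 of 35, and sperm markers lower in 2 and higher in 13 of 49. The part of any of these lists in the member differences was not tested. The F1 files carry transcript lengths of the wild parent, so F1 counts appear to come from the wild transcriptome alone. With the authors' allele-aware gene totals, which hold both alleles, 54 of the 63 pairs passed as well.

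**Figure D3:**
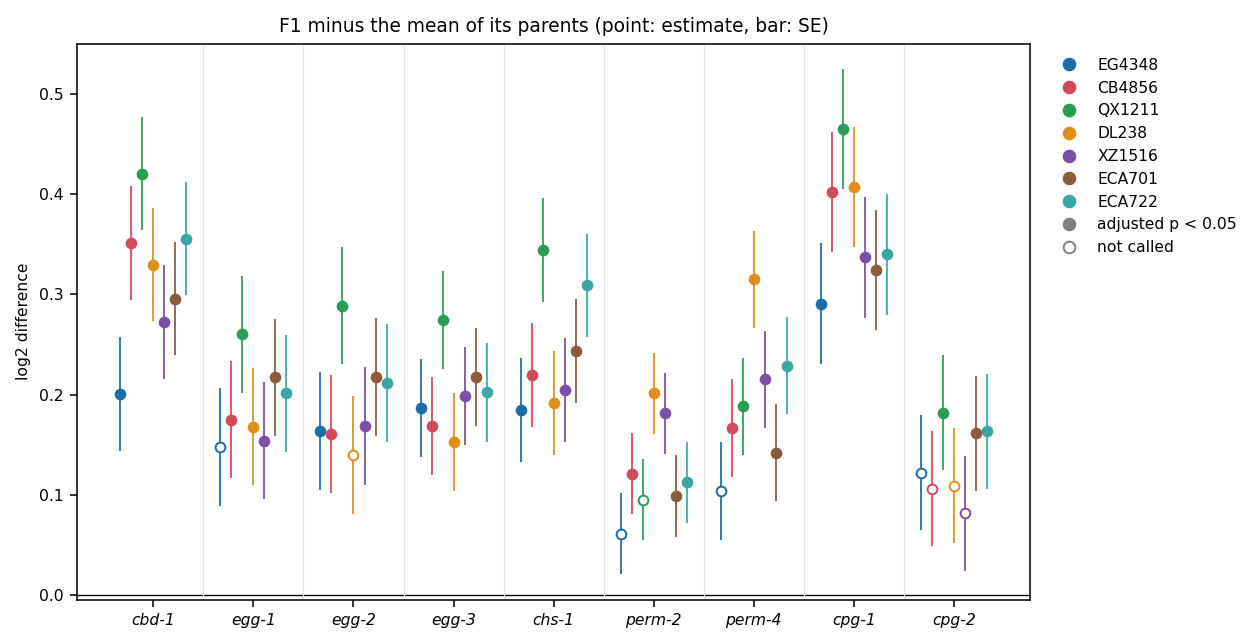
Log2 difference of each F1 from the mean of its parents (y axis) for the 9 genes (x axis), with the standard error as a bar. Filled points have an adjusted p under 0.05. All 63 points lie above 0, those of cpg-1 between 0.29 and 0.46.

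The genes cpg-1 and cbd-1 had the largest F1 differences. In the QX1211 F1, cpg-1 measured 2465, 2681 and 2437 CPM, above every library of N2 (1736 to 2004) and of QX1211 (1676 to 1846). Its difference from the mid-parent was 0.46 (SE 0.06, edgeR adjusted p = 1.45e-07), and the 7 crosses ran from 0.29 to 0.46, all called. For cbd-1 the QX1211 F1 had 3906, 4227 and 3776 CPM against parental values of 2836 to 3124, with no overlap (log2 0.42, adjusted p = 3.13e-07). The other crosses ran from 0.20 in EG4348, a call lost without EG4348 F1 replicate 3 (adjusted p = 0.169), to 0.36 in ECA722. In the ECA701 cross, where the wild parent was already high, the F1 cbd-1 libraries at 4208, 4593 and 4295 CPM overlapped those of ECA701.

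The chitin synthase gene chs-1 was called in all 7 crosses, from 0.18 in EG4348 to 0.34 in QX1211. QX1211 F1 libraries had 724.0, 801.8 and 690.2 CPM, above the 541.6 to 624.5 of both parents. In CB4856 the call was lost without F1 replicate 1 (adjusted p = 0.0563), in DL238 without F1 replicate 2 (0.082) or 3 (0.0609), in EG4348 without F1 replicate 3 (0.102) and in XZ1516 without F1 replicate 2 (0.069). The egg-3 differences were called in all 7 crosses too, from 0.15 to 0.27. Those of QX1211 and ECA701 held without any 1 library. The others were lost in CB4856 without F1 replicate 1 or 2 (adjusted p = 0.0548 and 0.0567), in ECA722 without F1 replicate 1 (0.0516), in EG4348 without F1 replicate 3 (0.0748) and in XZ1516 without F1 replicate 2 (0.0891). In DL238 the call was lost without DL238 replicate 1, F1 replicate 2 or 3, or N2 replicate 1 (0.0645 to 0.139), with no count filter (0.104) and with only the groups compared (0.0844).

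For perm-4 the largest F1 difference was in DL238, whose own perm-4 level did not pass against N2. Its F1 libraries had 1036, 1127 and 1130 CPM, above 848.6 to 961.5 in DL238 and 812.0 to 933.3 in N2 (log2 0.32, SE 0.05, edgeR adjusted p = 5.19e-06). The EG4348 cross was not called (0.10), and the calls in ECA701 (0.14) and QX1211 (0.19) were lost without F1 replicate 3 (adjusted p = 0.0868) and F1 replicate 2 (0.061) of those crosses. For perm-2, 5 crosses were called, with 0.20 in DL238 as the largest, and in QX1211 the F1 had 620.9, 630.7 and 636.4 CPM, between the parents' group means of 526.3 and 659.7 (log2 0.10, adjusted p = 0.0559). The perm-2 call in CB4856 was lost without F1 replicate 1 (adjusted p = 0.112) or N2 replicate 3 (0.0612), or with only the groups compared (0.0939). That in ECA701 was lost without any 1 library of the strain or its F1 and without N2 replicate 2 or 3 (0.0539 to 0.119), and with allele-aware totals (0.0845). In ECA722 it was lost without F1 replicate 3 (0.102) or N2 replicate 2 (0.055) or 3 (0.0887), with no count filter (0.0945) and with only the groups compared (0.267). Without F1 replicate 1 the difference went from 0.11 to 0.03 (adjusted p = 0.654).

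The sperm-entry genes had smaller F1 differences, 0.15 to 0.26 for egg-1 and 0.14 to 0.29 for egg-2, each called in 6 of 7 crosses. For egg-1 the QX1211 F1 measured 717.4, 807.1 and 711.3 CPM, above all libraries of both parents, and this call was lost without F1 replicate 2 (adjusted p = 0.0589). The ECA701 call of egg-1 held without any 1 library, while the others were lost without N2 replicate 1 in CB4856, DL238, ECA722 and XZ1516 (adjusted p = 0.0522 to 0.132). They were also lost without F1 replicate 1 or 2 in CB4856, F1 replicate 1 in ECA722, DL238 replicate 1 or F1 replicate 2 or 3 in DL238, and XZ1516 replicate 1 or 2 or F1 replicate 2 or 3 in XZ1516 (0.0729 to 0.396). No count filter or only the groups compared ended the DL238 (0.121 and 0.136) and XZ1516 (0.0657 and 0.0733) calls. For egg-2 the ECA701 and QX1211 calls held. The call in EG4348 was lost without any 1 of its parental and F1 libraries or N2 replicate 1 (0.0532 to 0.276), and that in ECA722 without F1 replicate 1 (0.0807). In CB4856 it was lost without CB4856 replicate 1 or 3, F1 replicate 1 or 2, or N2 replicate 1 (0.0569 to 0.162), and in XZ1516 without XZ1516 replicate 2, F1 replicate 2 or 3, or N2 replicate 1 (0.0518 to 0.308). No count filter ended the CB4856 (0.0667) and EG4348 (0.0515) calls, and only the groups compared the XZ1516 call (0.0526).

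The proteoglycan gene cpg-2 had the fewest F1 calls. Its difference passed in 3 crosses, QX1211 (0.18), ECA701 and ECA722 (0.16 each). In QX1211 the F1 had 2392, 2618 and 2327 CPM, and its lowest library lay within the N2 range of 2115 to 2346. The call there was lost without F1 replicate 2, QX1211 replicate 2 or N2 replicate 1 (edgeR adjusted p = 0.0523 to 0.268). It was lost in ECA701 without ECA701 replicate 1 or F1 replicate 2 or 3 (0.0654 to 0.117), and in ECA722 without F1 replicate 1 or 3 or N2 replicate 1 (0.119 to 0.215), or with no count filter (0.0892). Over the 9 genes, 10 F1 calls were lost without N2 replicate 1.

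Inside an F1, both alleles were measured in the same animals. Reads can be assigned to an allele only where the strains differ in the transcript. Of the 63 gene and cross pairs, 44 had at least 10 allele-specific fragments per library on average and 19 had 0. No pair in the CB4856 or DL238 cross could be tested for egg-1, egg-3, perm-2 or perm-4. In the 42 pairs with at least 20 such fragments, the mean wild share lay between 42.1% and 55.4%, and 40 of them lay between 45% and 55%. The allele test called 10 of 44 pairs, 8 with the wild allele higher and 2 lower, against 11.6% of all gene and cross pairs in either direction and 6.08% with the wild allele higher. The count was 22 with allele-specific reads alone and 6 with a minimum of 5 reads. That minimum ended the calls of chs-1 in DL238 (adjusted p = 0.0637) and XZ1516 (0.0561) and of cpg-1 (0.0552) and perm-2 (0.0532) in ECA701.

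**Figure D4:**
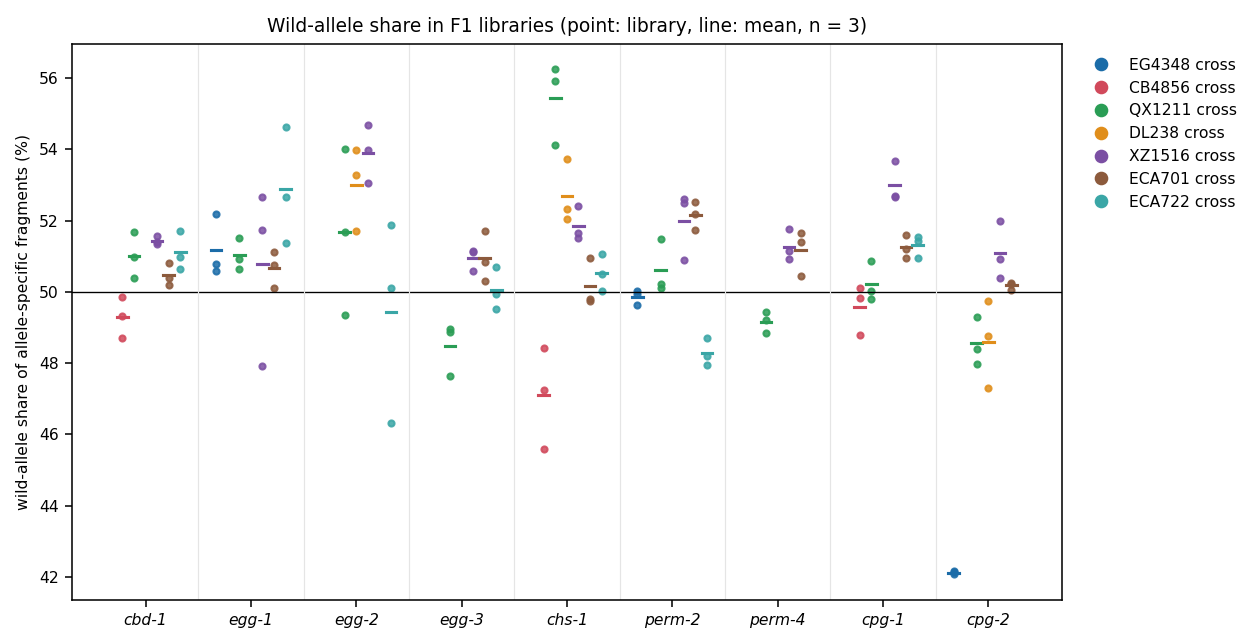
Share of allele-specific fragments from the wild allele in percent (y axis) for each gene and cross with at least 20 such fragments, with 1 point per F1 library and a line at 50%. Shares of chs-1 in the QX1211 cross lie at 54.1 to 56.3%, and those of cpg-2 in the EG4348 cross at 42.1 to 42.2%.

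The clearest wild excess was for chs-1 in the QX1211 cross. Wild-specific fragments numbered 4671, 3690 and 3532, and N2-specific ones 3962, 2907 and 2747. The wild share was 54.1%, 55.9% and 56.3% in the 3 libraries (mean 55.4%, SD 1.16), above 50% in each (log2 0.32, SE 0.03, edgeR adjusted p = 0.00313). Among the parents, chs-1 differed by only 0.06 and overlapped. In the other crosses, chs-1 was called for the wild allele in DL238 (52.7%, log2 0.20) and XZ1516 (51.9%, log2 0.11), both calls lost without any 1 F1 library of that cross (adjusted p = 0.0688 to 0.207 in DL238, 0.128 to 0.157 in XZ1516). In CB4856 the share was 45.6%, 48.4% and 47.3%, below 50% in each library, and was not called (log2 -0.17, adjusted p = 0.0812).

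XZ1516, with 4 of 9 members called (17.3% of all genes tested in that cross), had the most allele calls. Besides chs-1 they were cpg-1 (53.0%, log2 0.17, edgeR adjusted p = 0.00277), egg-2 (53.9%, log2 0.22) and cbd-1 (51.4%, log2 0.08). The cpg-1 call held without any 1 library. That of egg-2 was lost without F1 replicate 2 (adjusted p = 0.0672), and that of cbd-1 without any 1 of the 3 F1 libraries (0.0555 to 0.0925). ECA701 had 2 calls of 8 tested pairs (13.8% of all genes there), perm-2 (52.2%, log2 0.12) and cpg-1 (51.3%, log2 0.07), both lost without any 1 F1 library (0.125 to 0.179 and 0.12 to 0.175), and the latter also with DESeq2's test (0.0904).

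The N2 allele was higher for cpg-2 in the EG4348 cross, where 2 of 4 members were called (8.43% of all genes). Wild-specific fragments numbered 7389, 8924 and 8851 and N2-specific ones 10176, 12244 and 12157. The wild share was 42.1%, 42.2% and 42.1%, below 50% in each library (log2 -0.21 in the allele counts, SE 0.02, edgeR adjusted p = 0.00238). The same share scaled by what the EG4348 parent itself yields in wild-specific fragments, a check chosen after seeing the data, was 48.7% (SD 0.61). The other call, perm-4 (log2 -0.20), rests on 8, 12 and 6 N2-specific and 0, 3 and 1 wild-specific fragments and was lost without F1 replicate 1 (adjusted p = 0.117). With the same scaling chs-1 in QX1211 stood at 55.7%, in DL238 at 50.7% and in CB4856 at 44.7%. QX1211 had 1 call of 9 pairs (11.4% of all genes), DL238 1 of 3 (7.41%), and CB4856 (3 pairs, 7.82%) and ECA722 (8 pairs, 9.76%) had 0.

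The parental difference minus the allelic difference, called the trans difference in such designs, was tested in the 44 pairs with an edgeR model over the 9 libraries of each cross. It was called in 14 pairs, 13 positive and 1 negative, where 15.2% of all gene and cross pairs were called and 7.36% were positive. The member median was 0.18, against all-gene medians of -0.04 to 0.05 by cross. A positive value means that the wild parent exceeded N2 by more than the wild allele exceeded the N2 allele. N2 libraries enter all 7 crosses, and the count was 8 without N2 replicate 2, 9 without replicate 3 and 20 without replicate 1.

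**Figure D5:**
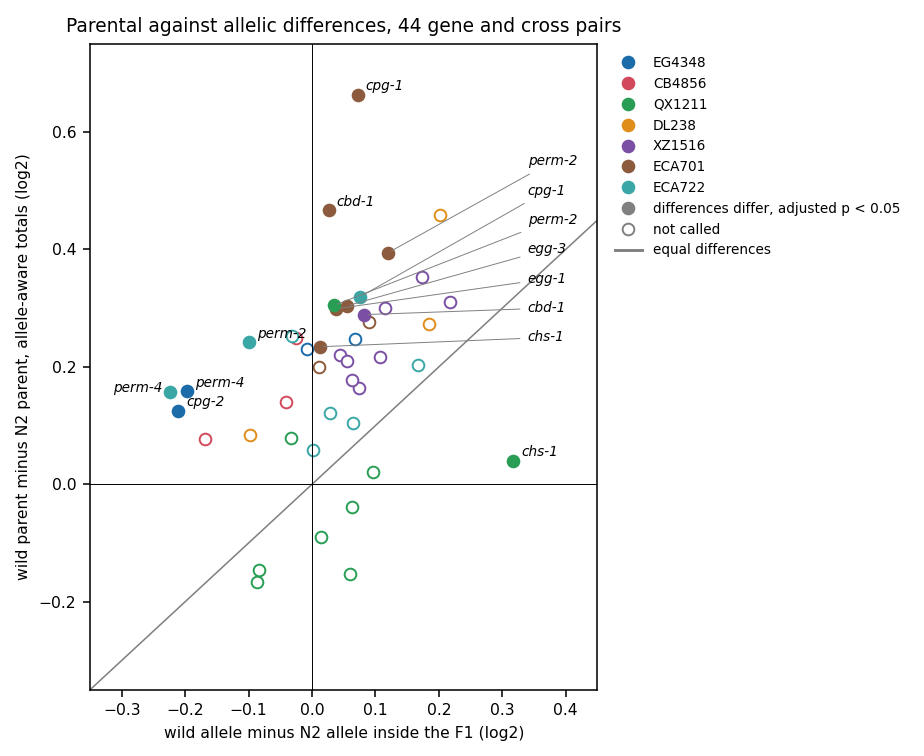
Wild minus N2 difference between parents (y axis, log2, allele-aware totals) against wild minus N2 allele difference inside the F1 (x axis, log2) for 44 gene and cross pairs, with filled, named points where the 2 differ at an adjusted p under 0.05. Most points lie above the line of equal differences, and chs-1 in QX1211 lies below it.

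ECA701, with 6 called of 8 tested (21.9% of all genes in that cross), held the largest trans differences. They were 0.59 for cpg-1 (SE 0.08, edgeR adjusted p = 0.00049) and 0.44 for cbd-1 (SE 0.06, adjusted p = 0.000876), and 0.22 to 0.27 for perm-2, egg-1, egg-3 and chs-1. Allele shares of cpg-1 and cbd-1 in that cross, 51.3% and 50.5%, sat close to even while the parents differed by 0.70 and 0.51. The cpg-1 and cbd-1 calls held without any 1 library, and the other 4 did not. Those of egg-1, egg-3 and chs-1 were lost without any 1 F1 library or ECA701 replicate 2 or 3 (adjusted p = 0.0543 to 0.122), and also without N2 replicate 3 (0.0701 for egg-1, 0.0593 for egg-3) or 2 (0.0564 for chs-1). With a minimum of 5 reads the egg-1 call was lost too (0.0571). That of perm-2 was lost without ECA701 replicate 1 or 3, F1 replicate 2 or N2 replicate 2 (0.0528 to 0.0577).

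ECA722 (3 of 8, 15.2% of all genes) had perm-2 at 0.34 (edgeR adjusted p = 0.00894), cpg-1 at 0.24 and perm-4 at 0.38, where perm-4 rests on 9, 19 and 6 N2-specific and 2, 3 and 3 wild-specific fragments. The cpg-1 call there was lost without any 1 library of ECA722 or its F1 or N2 replicate 2 (adjusted p = 0.0523 to 0.0769). EG4348 (2 of 4, 14% of all genes) had cpg-2 at 0.34 and perm-4 at 0.35, the genes whose allele values carry the limits given above. XZ1516 (1 of 9, 17.5%) had cbd-1 at 0.21, lost without XZ1516 replicate 1 or 3, any 1 F1 library, or N2 replicate 2 or 3 (0.0538 to 0.0868). CB4856 and DL238 (3 pairs each, 9.04% and 9.84%) had 0.

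QX1211 (2 of 9, 13.9% of all genes) gave the one negative value, -0.28 for chs-1 (SE 0.07, edgeR adjusted p = 0.029): the wild allele was higher in the F1 while the parents overlapped. It also had perm-2 at 0.27 (adjusted p = 0.0328), with an allele share of 50.6% and a parental rise of 0.33. Both calls were lost without N2 replicate 2 (adjusted p = 0.074 for chs-1 and 0.0808 for perm-2) or 3 (0.0811 and 0.0818). They were also lost without QX1211 replicate 2 or 3 or F1 replicate 2 or 3 (0.0602 to 0.0891), and perm-2 without QX1211 replicate 1 (0.0546).

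Other genes of the eggshell and egg activation were also set against N2. A list of 35 such genes was drawn up, of which 32 were tested, giving 224 gene and strain pairs. Of these pairs 83 were higher, 37 lower and 104 not called, where 21.4% of pairs over all genes were higher and 40.9% were called. Medians by strain ran from -0.08 to 0.15, against -0.01 to 0.03 over all genes. Whether the list differed from the 9 members was not tested. The vitelline and permeability genes outside the 9 (7 genes) had 23 higher and 6 lower of 49 pairs, and those of chitin precursor synthesis (3 genes) 11 higher and 1 lower of 21. Chondroitin synthesis genes (9) had 17 higher and 13 lower of 63, near the share over all genes, and other chondroitin proteoglycans (5 tested) 12 higher and 5 lower of 35. Genes of the MBK-2 pathway (3) had 11 higher and 7 lower of 21. Those of cortical granule traffic (4 tested) had 8 higher and 5 lower of 28, and spe-11, supplied by sperm, 1 higher and 0 lower of 7. Against the mid-parent, 103 pairs were higher, 20 lower and 101 not called, where 19.4% over all genes were higher and 35.8% were called. Medians by cross were 0.10 to 0.18, against -0.08 to 0.01 over all genes. Within the list, the other chondroitin proteoglycans had 9 higher and 9 lower of 35, and chondroitin synthesis genes 26 higher and 0 lower of 63.

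Named by a rule on consistency and size, pod-2, an acetyl-CoA carboxylase needed for the permeability barrier, was higher in all 7 strains by 0.24 to 0.46 (median 0.33). The small GTPase gene rab-11.1, of cortical granule release, was higher in all 7 by 0.18 to 0.36. The pseudophosphatase paralogs egg-4 and egg-5, which act with EGG-3 on MBK-2, went opposite ways: egg-4 was higher in 6 strains (median 0.30, range -0.10 to 0.64), and egg-5 was lower in 6 (median -0.65, range -1.42 to 0.05). They are near-identical in sequence, so reads may be split between them and both values are uncertain. The cytochrome P450 reductase gene emb-8 was lower in 4 strains and higher in 1 (median -0.13, range -0.28 to 0.14). The caveolin gene cav-1, a cortical granule protein, was lower in 3 (median -0.52, range -1.325 to 0.498). The N2 libraries spread widely for cav-1 (mean 60.04 CPM, SD 24.74) and pod-2 (mean 421.9 CPM, SD 76.42).

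The 9 genes varied together to different degrees. Pearson's r between the 15 group means is given as a description of groups that share the N2 parent and its libraries. Over the 36 member pairs it ran from 0.24 for egg-3 and perm-2 to 0.96 for cbd-1 and cpg-1, with a median of 0.76. No such median over other gene pairs is given here, so it does not set the members apart. Neighbours perm-2 and perm-4 had r = 0.76. Among 7016 genes above 10 CPM, the pattern most like that of cbd-1 was that of rme-2 (r = 0.98), the yolk receptor gene of the oocyte. The closest for the others were srpa-72 for cpg-1 (0.97), F31B9.3 for egg-1 (0.96), egg-1 for egg-2 (0.94), har-2 for egg-3 (0.97), sec-24.1 for chs-1 (0.96), F53H1.3 for perm-2 (0.90), pid-2 for perm-4 (0.90) and trcs-1 for cpg-2 (0.96).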

How the data were processed

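The 45 libraries were grouped by the strain and generation in their titles, with 3 per group. The authors deposited kallisto estimated counts and TPM per transcript for each library, and, per the file headers and names, emase-zero expected counts for the 2 alleles of each gene, along with Salmon's equivalence classes. Per the submitters' processing notes the tools included kallisto, Salmon 1.4, Trimmomatic 0.39, FastQC and DESeq2 1.42.0, and the build was ce11. The N2 parental allele files have QX1211 as second allele, and the EG4348 files name theirs EG4349. A variance-stabilised log2 matrix deposited by the authors was not used.

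Transcripts were matched by name to Ensembl WBcel235 genes (31970 of 31973), and estimated counts were added up within genes, then rounded. TPM was summed per gene to compare genes. Totals per gene went into edgeR 4.0.16 (R 4.3.3): quasi-likelihood test, TMM scaling, default count filter, 1 coefficient per group over 45 libraries (30 residual degrees of freedom), and Benjamini-Hochberg adjustment over all genes tested at 0.05. For each cross the rounded counts of the 2 alleles were compared within libraries, using genes whose allele-specific reads averaged 10 or more per hybrid library. Standard errors follow from the log2 difference and the F statistic. Depth was 24.5 to 90.5 M (mega) estimated counts per library (median 63.6). Replicates correlated at 0.98 to 0.994, and no pair of libraries agreed within counting noise. The labels name no molecular identifiers, so counts can include PCR copies.

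In simulated data, gene means came from all 45 libraries for the tests against N2 and the mid-parent. The allele and trans tests used means of the CB4856 F1 libraries. Changes were planted in the CB4856 parent, its F1 or its alleles. At 1.25-fold, 40.4% of changed genes were recovered against N2 among 16021 genes and 43% against the mid-parent among 15825. Between alleles 4.08% were recovered, and for the trans difference 0%, among 5843. For 2-fold changes the shares were 66.7%, 70.9%, 65.7% and 49%. Small allele and trans differences are therefore often missed.

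The 9 genes and all lists were chosen with earlier results of these data known. Genes of the other lists were named by the number of strains called in 1 direction and the size of the median, and genes of like pattern as the closest by Pearson's r. Replicate numbers were checked for pairing. The alternatives were DESeq2's test, its size factors, no count filter, only the groups compared, allele-aware totals, allele-specific reads alone, minimums of 5 and 20 reads, a replicate block, and leaving out each library.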

Additional observations from a re-analysis of the deposited data

Results flagged for a closer look

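Some member results point opposite ways in different strains or crosses, with every library on 1 side in each, and none of these differences between strains or crosses was itself tested. Against N2, egg-3 was lower in QX1211 (log2 -0.15) while 5 other strains lay above N2 in every library, and cpg-2 in QX1211 (-0.12, not called) lay below N2 while 3 others lay above.

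Between alleles, the wild share of cbd-1 was below 50% in each library of the CB4856 cross (mean 49.3%) and above it in the QX1211, XZ1516, ECA701 and ECA722 crosses. For chs-1 it was below in CB4856 (47.1%) and above in QX1211, DL238, XZ1516 and ECA722. For egg-3 (48.5%) and perm-4 (49.2%) it was below in QX1211 and above in XZ1516 and ECA701. For perm-2 it was below in ECA722 (48.3%) and above in QX1211, XZ1516 and ECA701. For cpg-2 it was below in EG4348 (42.1%), QX1211 (48.6%) and DL238 (48.6%) and above in XZ1516 and ECA701. Of these only cpg-2 in EG4348 and egg-3 in QX1211 against N2 were called on the low side. The shares in this paragraph are unscaled. Scaled by the wild parent, cbd-1 stood at 50.5% in CB4856 and 49.98% in QX1211. With this scaling cpg-2 stood at 48.7% in EG4348 and 50.2% in DL238. Scaled means of egg-3 (49.5%) and perm-4 (49.99%) in ECA701 and chs-1 in ECA722 (48.5%) fell below 50%. The other shares named kept their side, among them chs-1 in CB4856 (44.7%) and perm-2 in ECA722 (48.5%).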

How the results depend on the processing

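No called member result was called in the opposite direction under any alternative. The side of uncalled values close to no difference can depend on single libraries. An example is the allele share of egg-3 in the ECA722 cross, at 50.7%, 49.51% and 49.93% in the F1 libraries. Against N2, 47 members and strains were called, and 43 with DESeq2's test or its size factors, 42 with allele-aware totals, 40 without the count filter, 41 with only the groups compared and 37 (without N2 replicate 1) to 48 with 1 library left out. Against the mid-parent the count of 54 became 57, 56, 54, 47 and 49 in the same order, and 45 (without N2 replicate 1) to 55. The allele count of 10 was the least stable: 22 with allele-specific reads alone, 6 with a minimum of 5 reads, 11 of 42 with a minimum of 20, 15 with DESeq2's test, 10 with its size factors, and 7 to 10 with 1 library left out. The trans count of 14 was 19, 15, 16 with specific reads alone, 13 and 12 with the minimums of 5 and 20, and 8 to 20. For the other eggshell genes the 120 calls became 86 without the filter and 98 to 120 with 1 library left out. The cause of these moves was not tested. Of the called members, 31 of 47, 27 of 54, 3 of 10 and 6 of 14 kept their call in every alternative. Under other settings 1143 member values kept their side of the threshold, 49 lost the call and 44 gained it. With 1 library left out, 1280 kept their side, 174 lost the call and 17 gained it.

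With the replicate number as a block the counts were 48, 57, 16 for the trans difference and 127 for the other eggshell genes, and the trans calls of chs-1 (adjusted p = 0.07) and perm-2 (0.0634) in QX1211 were lost. Libraries of the same number did not deviate together throughout. Their correlations ran from -0.27 (in the ECA722 cross) to 0.43 (in the DL238 cross) with a median of 0.03, and 17 of 63 were over 0.1. Of 63 libraries, 27 matched their own number best. The numbers are therefore not taken as pairs, though pairing in some groups is not excluded.

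Scaling the wild share by the wild parent was chosen after seeing the data. It moved 29 of 42 shares by more than 1 SD of their 3 libraries and 13 by less. Some moved across 50%, such as egg-1 in ECA701 (50.7% to 47.6%) and cbd-1 in CB4856 (49.3% to 50.5%), and others did not. Shares within a few percentage points of 50% therefore depend on this scaling. Over all genes, calls moved by more than 1.5 times for DL238 against N2 with only the groups compared (3880 against 5901), for alleles with specific reads alone (EG4348 799 against 343, CB4856 1072 against 457, QX1211 2112 against 1071, DL238 1043 against 435, XZ1516 2848 against 1751, ECA701 2158 against 1222, ECA722 1884 against 910), for alleles with DESeq2's test (EG4348 532, CB4856 688, DL238 657), in CB4856 with a minimum of 5 reads (296), and for the trans difference with the block (EG4348 360 against 571, QX1211 757 against 1302). The largest shift of an all-gene median under an alternative was 0.0466 on the log2 scale.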
